A study of Mus musculus with 868 samples.

Results

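Malat1, Neat1 and Meg3 are long noncoding RNAs that stay in the nucleus, and Malat1 is known as one of the most abundant transcripts of many mouse tissues. They were 3 of the 24421 gene symbols counted in each of 24 tissues, and were chosen by their high counts in these libraries, and taken by their symbols. Their levels are therefore given as a description, with no test, and only the differences between treatments were tested. The study sequenced 3′ ends of RNA from C57BL/6N mice given a drug, a vehicle or nothing, in 868 libraries.

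The drugs were compared only within 3 sets of libraries, taken as given. Set A held APAP (2 hours) and Sofosbuvir, with Sucrose (5% sucrose) and Untreated (the labels' untreated WT) as controls. Set B held Alendronate, Asenapine, Lurasidone, Olanzapine and Risedronate and had no control. Set C held Aripiprazole, Cisplatin, Clozapine, Dox (2 mg per mL), EMPA (orally for 2 weeks), Lenalidomide, Repatha and Teriparatide, with CMCTween (0.5% CMC and 0.25% Tween80) as the control. A drug of set A was set against the mean of Sucrose and Untreated, a drug of set C against CMCTween, and a drug of set B against the mean of the other 4 drugs of that set. Groups had 2 libraries in each tissue, but there were 4 for brain with Asenapine and 4 for jejunum with Sofosbuvir. The labels give no age, sex or dose beyond those named, and do not say whether 2 libraries came from 2 mice, so the p-values measure the spread between libraries, which may be technical. What the sets are (mice, extraction, library preparation or sequencing) is not stated in the sources used here.

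Total counts per library ranged from 451154 to 12811780, with a median of 877592.5, and the 48 Untreated libraries were the deepest at 2875950 to 12811780. Of 72 tissue markers, 68 were highest in their own tissue in the Untreated libraries, and each of the 24 tissues had at least 1 such marker. In 843 of the 868 libraries the 3 markers of the labelled tissue also stood highest against the other lists. The 25 exceptions were 13 aorta libraries, in which heart, WAT or pancreas markers led, and 12 libraries of ileum, jejunum, skull, spleen, stomach and thymus. For the largest changes that hold one of them, and for the counts of tissues by drug that lead below, values without it are given too. No pair of columns was identical, and the 442 pairs of libraries of 1 group differed by 1.12 to 294 times the sampling variance (chi-square per degree of freedom, genes with at least 20 summed counts).

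Malat1 gathers in nuclear speckles, bodies rich in splicing factors, and its transcript ends in a genomically encoded A-rich stretch folded into a triple helix instead of an ordinary poly(A) tail. Neat1 is the scaffold of paraspeckles, bodies that hold Sfpq and Nono. Its short form carries a poly(A) tail, and its long form, which builds the paraspeckle, ends like Malat1. Meg3 is an imprinted transcript expressed from the maternal copy of the Dlk1-Dio3 locus, known in brain, pituitary and adrenal tissue, where it is transcribed together with Rian and Mirg. Cisplatin, the DNA-crosslinking drug of set C, is background to several results below, as are the antipsychotics Asenapine, Lurasidone, Olanzapine, Clozapine and Aripiprazole.

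In the GENCODE M21 annotation of mm10 the 3 genes are lincRNAs. Malat1 (ENSMUSG00000092341.3) lies at chr19:5795690-5802672 and Neat1 (ENSMUSG00000092274.3) at chr19:5824708-5845478, both on the minus strand, 22035 bases apart. Meg3 (ENSMUSG00000021268.17) lies at chr12:109541001-109571726 on the plus strand. Among the 23376 symbols of the tables that matched this annotation, none overlaps Malat1 or Neat1, whereas the microRNA genes Mir1906-1 and Mir770 lie within Meg3 on its own strand. A 3′-end library made by priming on A-rich sequence can start at a poly(A) tail or at an A run inside a transcript, and for that reason the candidate 3′ ends are printed here. The lines give, in this order, the only run of 8 or more A in the 6983 bases of Malat1-201, the last 60 bases of Malat1-201, of the short Neat1-202 (3004 bases) and of Meg3-207 (1896 bases), and the last 60 bases of the long Neat1-201 (20771 bases). Capitals mark the A run of 12 bases in the first line, the poly(A) signal AATAAA in the next 3 and the A-rich end in the last.

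Malat1-201 (chr19:5795924-5796073): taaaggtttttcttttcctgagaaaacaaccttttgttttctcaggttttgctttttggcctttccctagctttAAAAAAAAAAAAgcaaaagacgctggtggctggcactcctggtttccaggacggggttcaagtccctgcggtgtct
Malat1-201 (chr19:5795690-5795749): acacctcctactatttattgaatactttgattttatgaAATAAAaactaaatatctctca
Neat1-202 (chr19:5842307-5842366): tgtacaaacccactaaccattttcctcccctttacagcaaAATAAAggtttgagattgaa
Meg3-207 (chr12:109571662-109571721): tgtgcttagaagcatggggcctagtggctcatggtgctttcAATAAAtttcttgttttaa
Neat1-201 (chr19:5824708-5824767): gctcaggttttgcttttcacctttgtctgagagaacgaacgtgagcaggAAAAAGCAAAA

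Each is printed in the direction of transcription. The long Neat1-201 has no AATAAA in its last 60 bases and no A run of 8 or more, and the count tables give 1 value per symbol, so the short and the long form cannot be told apart. The other long form here, Meg3-209 (14548 bases), has 7 runs of 8 or more A, the longest of 16. These letters describe the annotation and do not show where reads began.

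In Untreated mice all 3 RNAs were detected in every tissue, but their ranges differed widely. Malat1 was highest in AdrenalG at 13369 and 13600 CPM (the count scaled by the library's column sum) and lowest in pancreas at 729 and 819 CPM, a 17.4-fold range of means. Below AdrenalG came skin (10743 and 12567 CPM), ThyroidG (10701 and 11847 CPM) and eye (10065 and 10520 CPM). Brain had 3164 and 3165 CPM, and testis, second from the bottom, had 818 and 908 CPM. Malat1 ranked among the 10 most counted genes in 14 tissues and among the top 50 in 21, Neat1 among the top 50 in 6 and Meg3 in 4. With TMM scaling over the Untreated libraries AdrenalG was still highest for Malat1, but testis was lowest and SkMuscle stood 5th instead of 16th. Of the 23 pairs of neighbours in the order, 12 overlapped in their library values and so did not differ beyond their spread.

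Neat1 was highest in WAT at 3134 and 4273 CPM, a range that overlapped that of lung (3520 and 3618 CPM), the next in the order. Skin, AdrenalG and ThyroidG followed, with means of 2787, 2548 and 2484 CPM. The lowest levels were in PituitaryG (215 and 233 CPM), testis (187 and 215 CPM) and brain (143 and 157 CPM), a 24.7-fold range of means, and 13 of the 23 neighbouring pairs overlapped. With TMM scaling WAT was still highest, but PituitaryG was lowest and pancreas stood 5th instead of 19th. Neat1 was below Malat1 in all 24 tissues, with a ratio between 0.0269 in PituitaryG and 0.613 in WAT. These ratios compare counts at 3′ ends, not levels per length.

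Meg3 spanned a far wider range. It reached 14896 and 18518 CPM in PituitaryG, 5348 and 5631 CPM in brain, 4316 and 4393 CPM in AdrenalG and 2340 and 2891 CPM in eye. These 4 tissues held 88.6% of its summed level over the 24 tissues, against 32.6% for the first 4 of Malat1 and 39.4% for those of Neat1. Skin came next at 717 and 731 CPM, and kidney (7.46 and 8.68 CPM) and BM (1.81 and 1.81 CPM, from 8 and 9 counts) were last, with 11 of 23 neighbouring pairs overlapping. The highest mean was 9229 times the lowest, a value that rests on the 8 and 9 counts in BM. In Sucrose libraries BM averaged 12.3 CPM, and liver was lowest at 11.7 CPM. In Untreated libraries Meg3 exceeded Malat1 in brain, by a ratio of 1.69 to 1.78, and in PituitaryG, by 1.99 to 2.14. Malat1 led in the other 22 tissues.

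**Figure D1:**
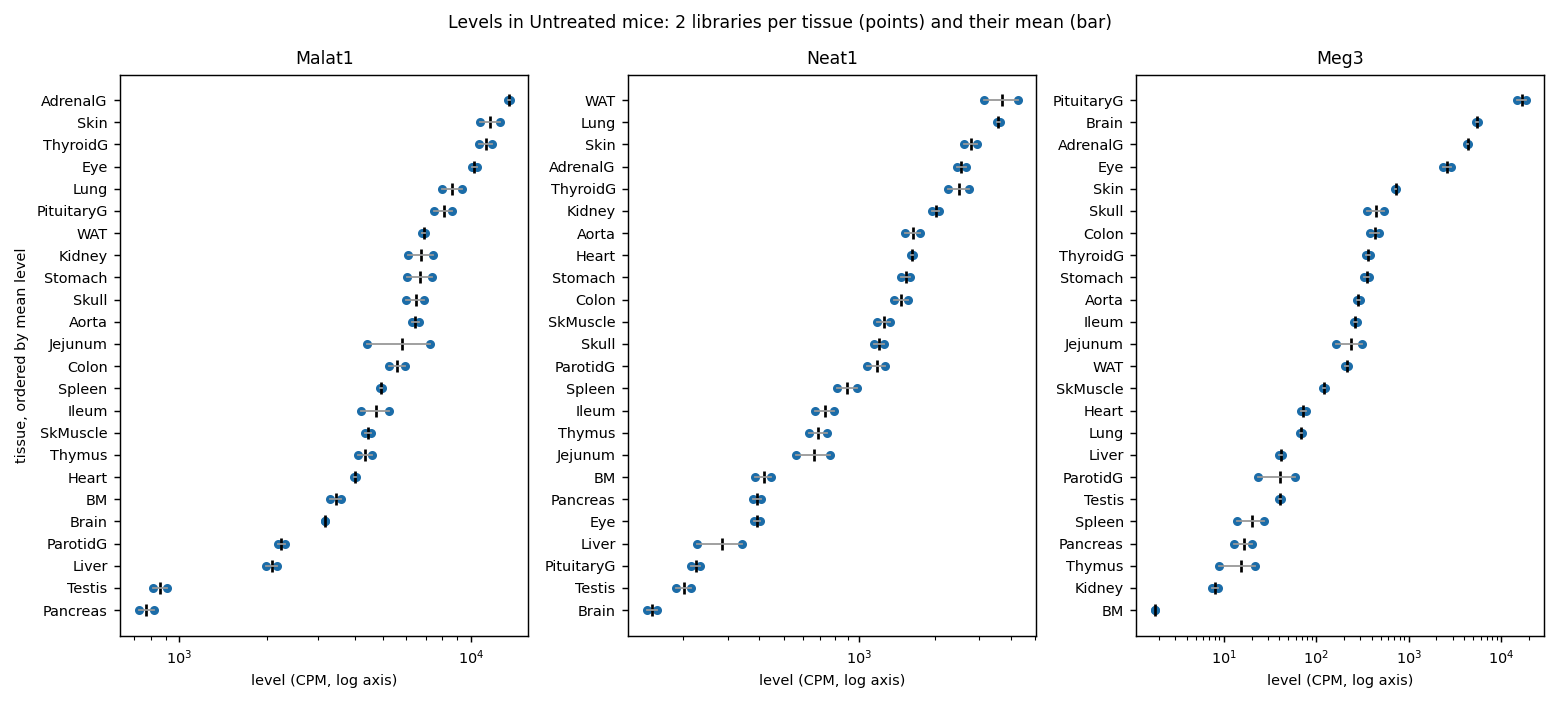
Levels of Malat1, Neat1 and Meg3 (CPM, log axis) in the 2 Untreated libraries of each of 24 tissues, with tissues ordered by the mean in each panel. Malat1 runs from 774 CPM in pancreas to 13485 CPM in AdrenalG, Neat1 from 150 CPM in brain to 3703 CPM in WAT, and Meg3 from 1.81 CPM in BM to 16707 CPM in PituitaryG.

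Over the 24 tissue means on the log2 scale, Malat1 and Neat1 had a Pearson correlation of 0.59, Malat1 and Meg3 of 0.51, and Neat1 and Meg3 of -0.06. These are descriptions over tissues that share library preparation and depth. Among 13926 genes with at least 20 CPM in a tissue, the pattern of Meg3 was most like that of Rian (0.98), the next transcript of the same imprinted locus, followed by Ndn (0.91) and Peg3 (0.90), both imprinted genes, Map1b (0.90), a microtubule-associated protein of neurons, and Fam171b (0.89). Rian was also highest in PituitaryG, at 546 CPM, and Mirg and Dlk1 of that locus had their maxima there too, at 171 and 3461 CPM. The genes most like Neat1 were Rhbdf1 (0.87), Gsn, the actin-severing gelsolin (0.86), Rbms2 (0.84), Ptrf, a coat protein of caveolae (0.84), and Ly6c1 (0.83). Those most like Malat1 were Xcr1, a chemokine receptor (0.92), Snx12, Rufy1 and Vti1a (0.90 each) and Zfp790 (0.89), which peaked at 24.4 to 75.9 CPM. By Spearman correlation Xcr1 stood 4th and Vti1a 6th, but Zfp790 stood 110th, Snx12 117th and Rufy1 142nd. The genes named for Neat1 stayed within the first 15 and those for Meg3 within the first 13. The median Pearson correlation over all 13926 genes was 0.35 with Malat1, 0.15 with Neat1 and 0.12 with Meg3.

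Of the listed speckle and splicing genes, Srrm2, a core speckle protein, came closest to Malat1 with a correlation of 0.78. Clk1, a kinase of splicing factors, had 0.75, and the median over all genes was 0.35. Among paraspeckle proteins, Sfpq had a correlation of 0.08 with Neat1 and Nono of 0.29, where the median over all genes was 0.15. Sfpq and Nono peaked in thymus, at 671 and 1254 CPM, where Neat1 had 689 CPM.

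Sucrose differed from Untreated within set A. Every Untreated library was deeper (at least 2875950 counts) than every Sucrose library (at most 2472639), so Sucrose and depth cannot be told apart. Malat1 was called in 9 of 24 tissues (an adjusted p under 0.05 in edgeR's quasi-likelihood test, Benjamini-Hochberg over all genes), rising in 7 and falling in 2, where 6.29% of all gene and tissue tests were called. In skin Malat1 fell to 3198 and 5390 CPM with Sucrose, against 10743 and 12567 CPM in Untreated libraries (log2 fold change -1.51 ± 0.37 SE, edgeR adjusted p = 0.0098). In AdrenalG it rose to 26446 and 25268 CPM with Sucrose, against 13369 and 13600 CPM in Untreated libraries (0.89 ± 0.12, edgeR adjusted p = 9.9e-06). Skin thus stood 19th of 24 for Malat1 in Sucrose libraries and second in Untreated libraries, and the 2 orders of tissues had a Spearman correlation of 0.79, against 0.97 for Neat1 and 0.96 for Meg3. Neat1 fell in 4 tissues, kidney, liver, pancreas and SkMuscle, and rose in none, and Meg3 was called in 0 tissues by edgeR and by DESeq2, with 5 tissues at an unadjusted p under 0.05. Without 1 of the Untreated or Sucrose libraries of each tissue, the Malat1 count was 4 to 8 and the Neat1 count 0 to 2.

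The sets differed in the median level of Malat1 and Neat1, which is given as a description since set and drug cannot be told apart. The median Malat1 level of set B libraries was above that of set A libraries in 24 of 24 tissues, by a median log2 difference of 1.10 (0.29 in liver to 1.34 in testis), and above that of set C in 24 of 24, by 0.67. The libraries themselves overlapped in most tissues, with sets B and A apart in 5 of 24 and sets B and C in 0. Against set A, Neat1 ran the other way, with set B below set A in 24 tissues (median log2 difference -0.82, libraries apart in 11) and set C below set A in 24 tissues (-1.07, apart in 8). Set B was above set C for Neat1 in 18 tissues, by a median of 0.30. Meg3 medians went both ways by tissue, higher in 11 tissues and lower in 13 for set B over A (median -0.03), and higher in 7 and lower in 17 for set C over A (median -0.15), between -1.19 in ParotidG and 1.87 in BM. In brain Meg3 was higher in every set C library than in every set A library (0.64). In lung, one of the tissues where the Neat1 libraries were apart, Neat1 ran from 1453 to 1980 CPM (median 1747) in 10 set B libraries, from 1016 to 2173 CPM (median 1373) in 18 set C libraries and from 3252 to 3764 CPM (median 3591) in 8 set A libraries, so set A overlapped neither of the others. Set A holds the deep Untreated libraries, and the part of depth in these differences was not tested. The directions and separations between sets were not counted over all genes, so whether they are particular to these RNAs was not tested.

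**Figure D2:**
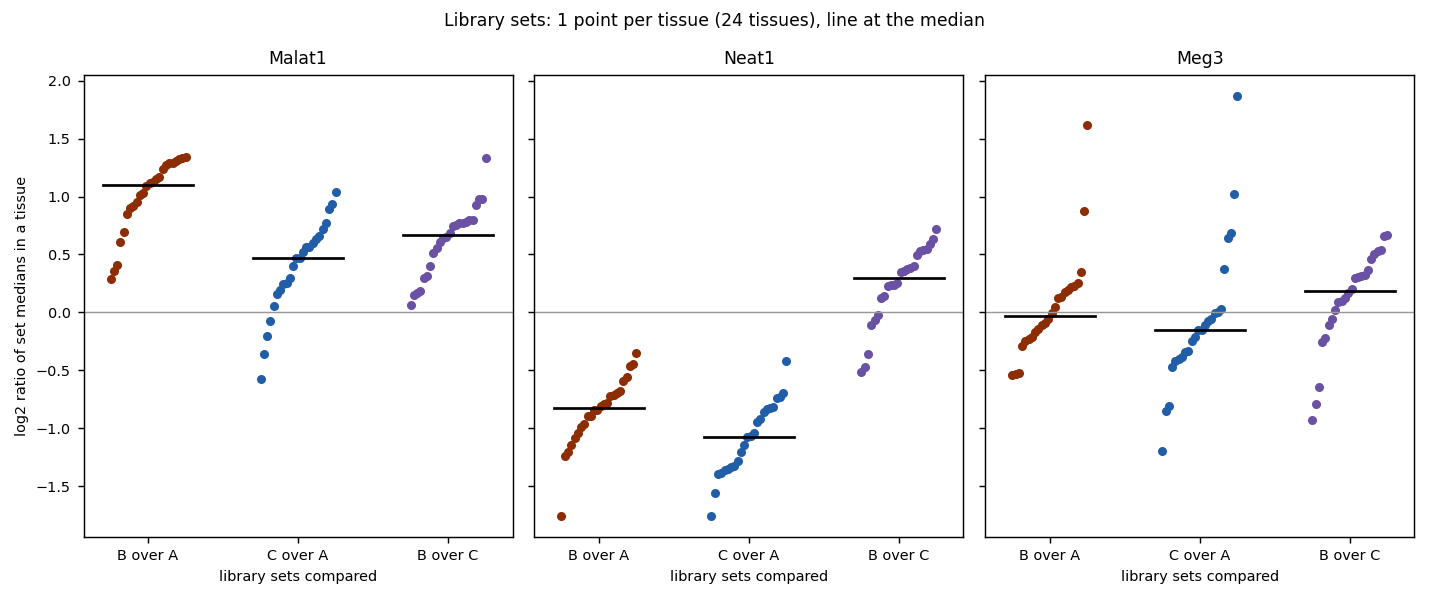
Log2 ratio of the median CPM between library sets (B over A, C over A and B over C) for each of 24 tissues, 1 point per tissue, by gene. Malat1 points of B over A lie between 0.29 and 1.34, all Neat1 points of B over A and C over A lie below 0, and Meg3 points of C over A run from -1.19 to 1.87.

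Among the 360 comparisons of a drug in a tissue, Malat1 was called in 89 (51 higher, 38 lower), Neat1 in 59 (48 higher, 11 lower) and Meg3 in 30 (20 higher, 10 lower). Over all genes, 2.74% of 3610845 such tests were called, against 24.7% for Malat1, 16.4% for Neat1 and 8.33% for Meg3. Malat1 calls fell mostly in set B (59 of 120 comparisons, where 2.44% of all tests were called), and Neat1 calls mostly in set C (42 of 192, where 2.09% were called). Without the comparisons that hold a library led by another tissue's markers, 314 remained, with 47 higher and 35 lower for Malat1, 40 and 11 for Neat1, and 19 and 9 for Meg3. These are changes in the share of all RNA in a tissue sample, and fewer cells of a type and less RNA per cell cannot be told apart.

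**Figure D3:**
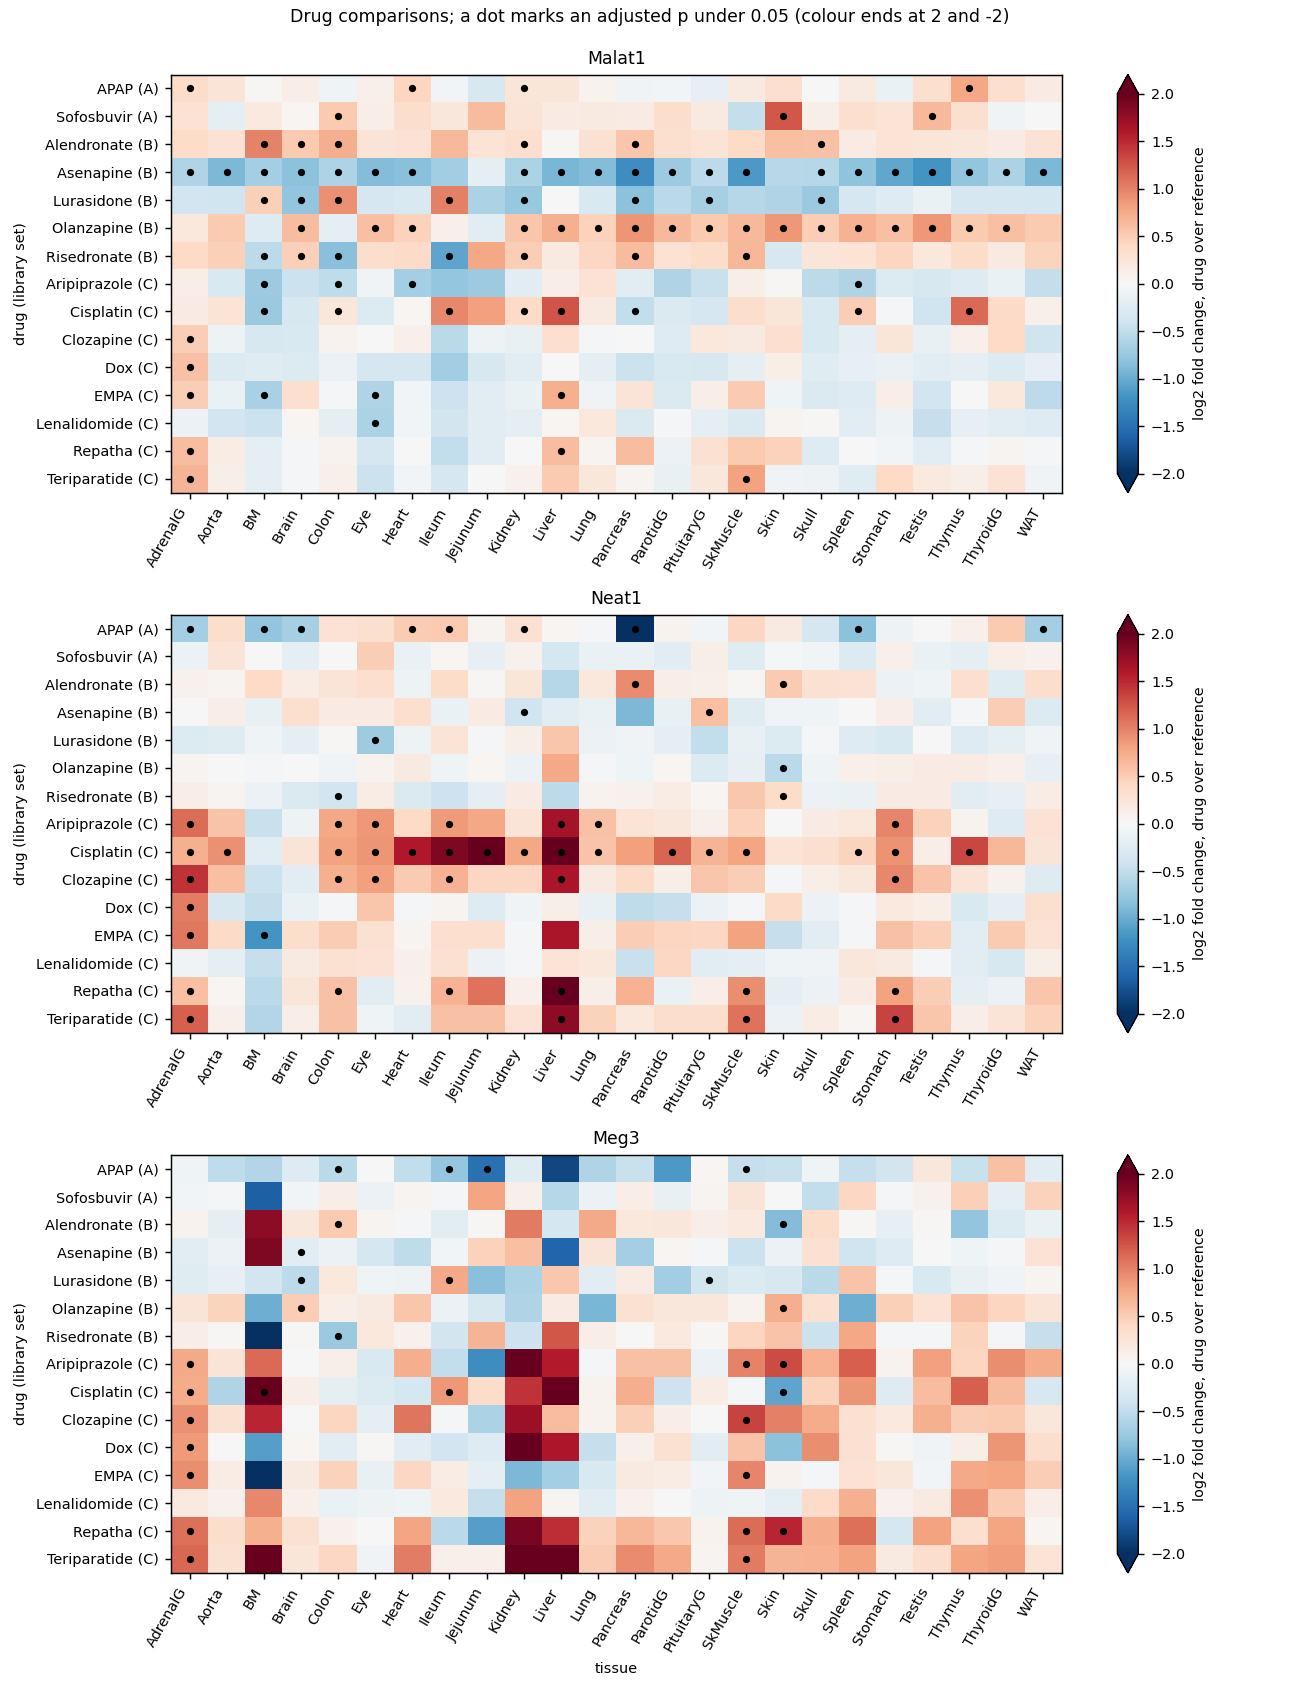
Log2 fold change of Malat1, Neat1 and Meg3 for 15 drugs in 24 tissues, each against the reference of its library set, with called comparisons marked. The Malat1 panel has 21 called falls for Asenapine and 17 called rises for Olanzapine, and the Neat1 panel 16 called rises for Cisplatin.

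Malat1 was lower with Asenapine than with the other 4 drugs of set B in 21 of 24 tissues. For Asenapine 4.67% of all gene and tissue tests were called, and 2.29% were called lower. Set B has no control, so which of its drugs moved Malat1 cannot be told. The log2 fold change with Asenapine was below 0 in all 24 tissues, with a median of -0.79. Of the 21 tissues with no library led by another tissue's markers, Malat1 was lower with Asenapine in 18. In pancreas Malat1 had 1078 and 1157 CPM with Asenapine, against 1256 to 4725 CPM (8 libraries) with the other drugs (-1.24 ± 0.12 SE, edgeR adjusted p = 1.79e-08). In testis it had 1157 and 1057 CPM with Asenapine, against 1854 to 3611 CPM with the other drugs (-1.19 ± 0.11, edgeR adjusted p = 1.14e-10). In both tissues every Asenapine library lay below every other library of the set, which held in 14 tissues. The share of all genes so placed was not counted. In SkMuscle it had 3661 and 3504 CPM with Asenapine, against 4199 to 10371 CPM with the other drugs (-1.15 ± 0.15, edgeR adjusted p = 7.38e-06), and in stomach 5982 and 6285 CPM with Asenapine, against 8272 to 16952 CPM with the other drugs (-1.05 ± 0.13, edgeR adjusted p = 5.92e-06). The highest of those stomach libraries, Olanzapine replicate 2, was led by skin markers, and without it, a fit added after seeing the data, the value was -1.01 (edgeR adjusted p = 3.37e-06). Ileum, skin and jejunum were not called, with log2 fold changes of -0.70, -0.55 and -0.19.

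Among 3517 genes tested in all 24 tissues, 3 fell with Asenapine in 21 or more, Malat1 included. Neat1 and Meg3 did not share this: Neat1 rose in PituitaryG and fell in kidney, and Meg3 fell in brain alone. Of 456 tests of listed speckle and splicing genes with Asenapine, 13 were called higher and 61 lower (median log2 fold change -0.08, against 0.02 over all genes). Luc7l3, a splicing factor, was lower in pancreas (-1.34), testis (-0.64), SkMuscle (-0.56) and stomach (-0.73), and Pnn, a speckle protein, in SkMuscle (-1.11) and stomach (-0.85). Kcnq1ot1, another nuclear noncoding RNA, was lower in pancreas (-1.25), stomach (-0.70) and testis (-0.39). It was the only member of the list of other long noncoding RNAs called in pancreas, stomach or testis. In SkMuscle 1 of the 16 members tested was called higher and 0 lower. Over all tissues that list went the other way with Asenapine, with 19 of 417 tests called higher and 13 lower (median 0.15, against 0.02 over all genes).

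Olanzapine stood at the other end of set B. Malat1 rose in 17 tissues and fell in none, with a median log2 fold change of 0.54, where 1.96% of all tests were called higher. Of the 21 tissues with no library led by another tissue's markers it rose in 15. In pancreas it had 4725 and 3745 CPM with Olanzapine, against 1078 to 3887 CPM with the other 4 drugs (0.88 ± 0.10, edgeR adjusted p = 3.48e-07), with one library inside that range. In testis it had 3611 and 3226 CPM with Olanzapine, against 1057 to 2475 CPM with the other drugs (0.87 ± 0.09, edgeR adjusted p = 2.78e-08), with no overlap. Set B has no control, so each drug's value also carries the levels of the other 4. With Asenapine left out of the reference, Olanzapine had 8 tissues higher and 1 lower, and with Olanzapine left out, Asenapine had 19 tissues lower. Both references were chosen after seeing the data.

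Alendronate and Risedronate are bisphosphonates, drugs that hold back bone resorption. With Alendronate Malat1 was higher in 6 tissues (0.406% of all tests were called higher), with a positive log2 fold change in all 24. The largest was in BM, at 9513 and 11740 CPM with Alendronate, against 4070 to 9307 CPM with the other drugs (0.99 ± 0.10, edgeR adjusted p = 4.86e-10). With Risedronate and with Lurasidone Malat1 differed both ways by tissue, with 1.92% of all tests called for Risedronate and 1.63% for Lurasidone. Lurasidone was higher in BM, colon and ileum and lower in brain, kidney, pancreas, PituitaryG and skull, while Risedronate was lower in BM, colon and ileum and higher in brain, kidney, pancreas and SkMuscle. Each is part of the other's reference, so these values are not independent of each other.

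In colon Malat1 averaged 16057 CPM with Lurasidone, against 9287 CPM with the other drugs (0.91 ± 0.05, edgeR adjusted p = 2.37e-16), and 6392 CPM with Risedronate, against 11703 CPM with the other drugs (-0.84 ± 0.06, edgeR adjusted p = 2.08e-13). In ileum it had 15305 and 14745 CPM with Lurasidone, against 3026 to 12929 CPM with the other drugs (1.01 ± 0.19, edgeR adjusted p = 0.0020), a call lost without either Lurasidone library. Risedronate had 6789 and 3026 CPM there, against 5377 to 15305 CPM with the other drugs (-1.06 ± 0.21, edgeR adjusted p = 0.00161), and -0.58 (adjusted p = 0.236) without replicate 2. With Asenapine left out of the reference, Lurasidone had 2 tissues higher and 14 lower, Risedronate 0 higher and 3 lower and Alendronate 2 higher. With Olanzapine left out instead, Lurasidone had 3 higher and 5 lower, Risedronate 13 higher and 3 lower and Alendronate 8 higher.

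**Figure D4:**
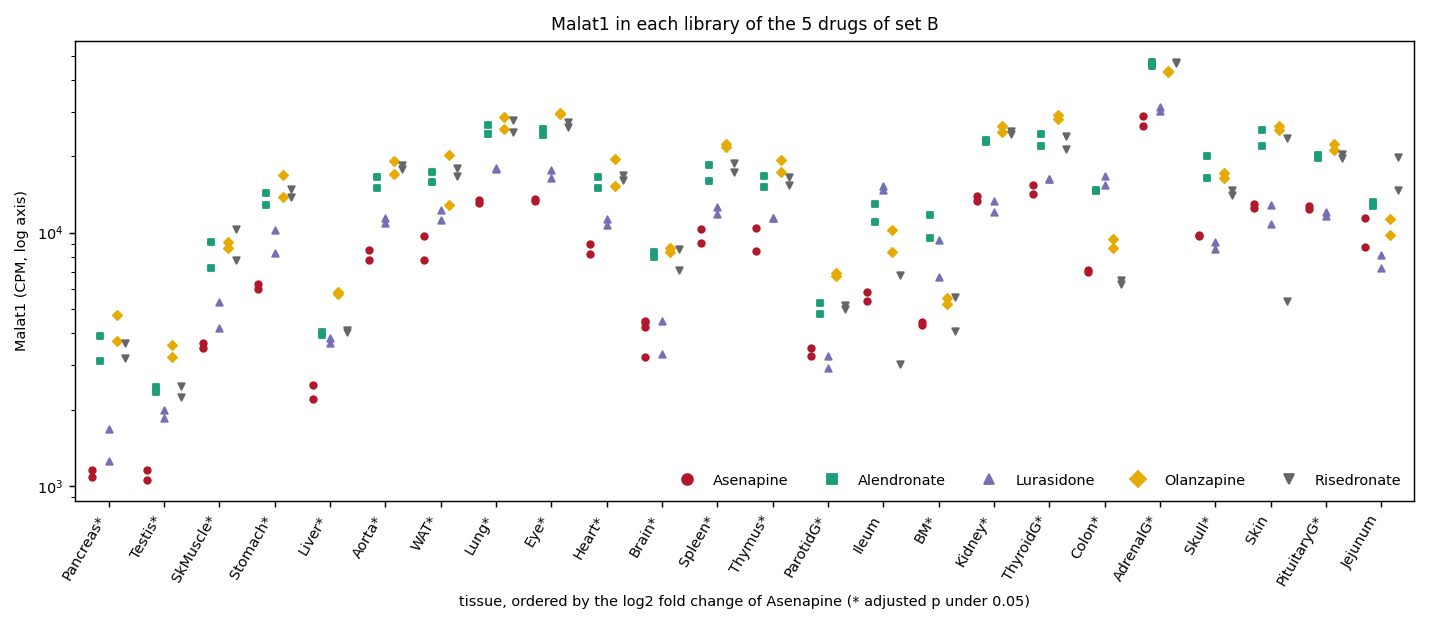
Malat1 CPM (log axis) for the 5 drugs of set B in 24 tissues, 1 point per library. Asenapine has the lowest mean of the 5 drugs in 15 tissues and Olanzapine the highest in 15.

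Outside set B, Malat1 rose with Cisplatin in 6 tissues and fell in 2, where 11.1% of all tests were called. Of the 18 tissues with no library led by another tissue's markers it rose in 4 and fell in 2. In liver it rose to 4619 and 4386 CPM with Cisplatin, against 1908 and 2094 CPM with CMCTween (1.26 ± 0.11, edgeR adjusted p = 2.05e-09). CMCTween itself was below the mean of the 8 drugs in liver (-0.45), and against all other groups of set C the Malat1 value with Cisplatin was 0.96. In thymus it rose to 22017 and 24471 CPM with Cisplatin, against 10483 and 8854 CPM with CMCTween (1.13 ± 0.12, edgeR adjusted p = 2.19e-10). In BM it fell to 4089 CPM on average with Cisplatin, against 6611 CPM with CMCTween (-0.75 ± 0.13, edgeR adjusted p = 1.39e-05), and CMCTween itself was above the mean of the 8 drugs there (0.44). Cisplatin thymus is a broad change, with 43.8% of genes called. T cell markers summed to 413 to 537 CPM there with Cisplatin, against 1704 to 1742 CPM with CMCTween, their part in the result was not tested, and one of its Cisplatin libraries was led by skin markers. With any 1 of the 4 libraries left out, the Malat1 value there was 0.996 to 1.20 and stayed called. In the same thymus samples 14 of 19 paraspeckle genes fell (Sfpq -1.43, Nudt21 -1.56) and 13 of 19 speckle genes fell (Srsf3 -1.50, Srsf7 -1.15), with none higher in either list.

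Sofosbuvir, an antiviral, raised Malat1 in colon, skin and testis, where 1.19% of all tests were called higher. In testis it averaged 1366 CPM with Sofosbuvir, against 838 CPM in Sucrose and Untreated libraries (0.65 ± 0.11, edgeR adjusted p = 0.000198). In skin it had 17622 and 16778 CPM with Sofosbuvir, against 3198 and 5390 CPM with Sucrose and 10743 and 12567 CPM in Untreated libraries (1.23 ± 0.30, edgeR adjusted p = 0.0133). The skin call was lost without either Sofosbuvir library and without Sucrose replicate 1, and the 2 controls themselves differed there.

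Neat1 responded most widely to Cisplatin. It rose in 16 of 24 tissues against CMCTween, where 5.6% of all tests were called higher, and its log2 fold change was positive in 23, with a median of 0.78. Every Cisplatin library lay above every CMCTween library in 20 tissues, and the share of all genes so placed was not counted. The largest change was in liver, with 343 and 310 CPM with Cisplatin, against 33.7 and 52.1 CPM with CMCTween (3.01 ± 0.33, edgeR adjusted p = 1.08e-07). In jejunum Neat1 had 1368 and 1364 CPM with Cisplatin, against 263 and 308 CPM with CMCTween (2.23 ± 0.31, edgeR adjusted p = 5.24e-05), and in ileum 1096 and 1140 CPM with Cisplatin, against 292 and 289 CPM with CMCTween (1.87 ± 0.18, edgeR adjusted p = 2.08e-09). One Cisplatin and one CMCTween library of ileum were led by jejunum markers, and one CMCTween library of jejunum by ileum markers. With any 1 library left out, Neat1 stayed called, at 1.73 to 1.96 in ileum and 2.08 to 2.40 in jejunum.

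In heart it averaged 2407 CPM with Cisplatin, against 776 CPM with CMCTween (1.60 ± 0.15, edgeR adjusted p = 3.63e-10). The other called tissues ran from 0.45 in spleen to 1.34 in thymus, and BM was the one negative value (-0.22 ± 0.16, edgeR adjusted p = 0.389). Against all other groups of set C, Neat1 with Cisplatin was higher in 17 tissues, and the liver value was 1.86. Without one or the other CMCTween library of each tissue it was higher in 13 or 11, and of the 18 tissues with no library led by another tissue's markers it was higher in 11. Among 3517 genes tested in all tissues, 6 rose with Cisplatin in 16 or more.

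Of 449 tests of paraspeckle protein genes with Cisplatin, 24 were higher and 35 lower (median -0.09), and the share called higher was near the 5.6% of all tests. In ileum 8 of 19 fell and none rose, where 29.1% of all genes were called. In liver 3 of 19 rose and none fell, where 10% of all genes were called, among them Rbm3, a cold-induced RNA-binding protein (2.13), and Matr3 (0.70). Other long noncoding RNAs had 47 tests higher and 16 lower of 417 (median 0.21, against 0.00 over all genes), among them Snhg12 (1.99) and Kcnq1ot1 (1.04) in liver. Macrophage markers summed to 1066 to 1150 CPM in ileum with Cisplatin, against 254 to 371 CPM with CMCTween, and to 46.6 to 84.7 CPM in liver with Cisplatin, against 125 to 147 CPM with CMCTween. Fibroblast markers in ileum summed to 6086 to 6541 CPM with Cisplatin, against 1753 to 2190 CPM with CMCTween, and the part of either list in the result was not tested.

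**Figure D5:**
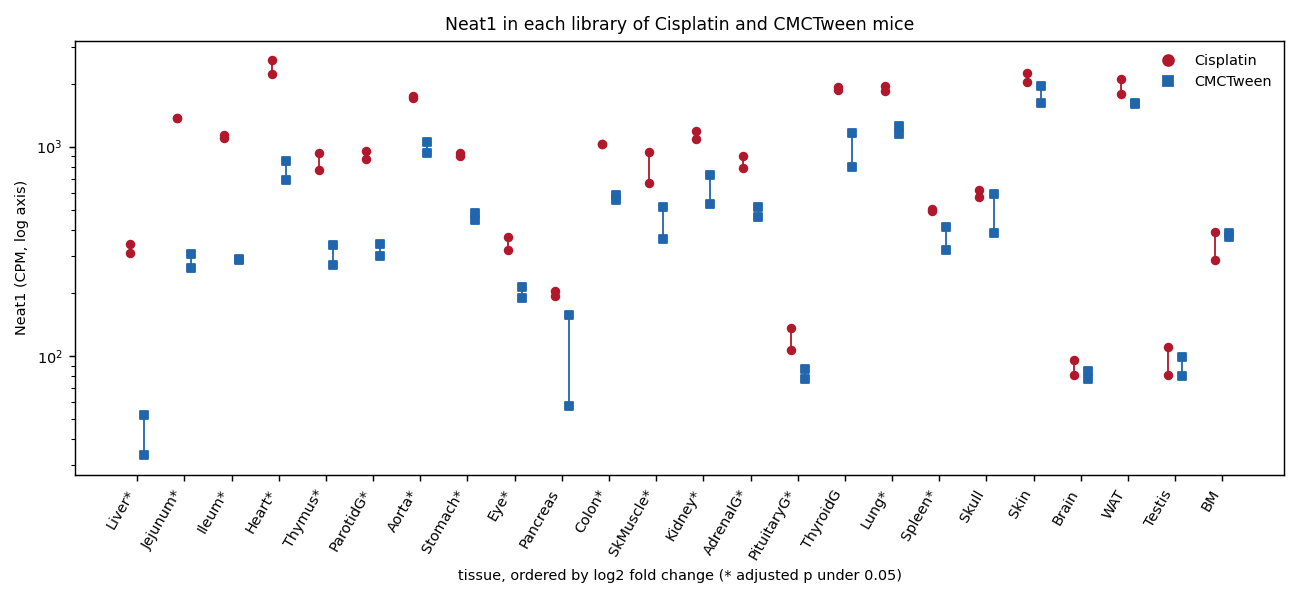
Neat1 CPM (log axis) with Cisplatin and with CMCTween in 24 tissues, 1 point per library. The 2 Cisplatin libraries lie above both CMCTween libraries in 20 tissues, with the widest gap in liver (310 to 343 CPM with Cisplatin, against 33.7 to 52.1 CPM with CMCTween). The share of all genes so placed was not counted.

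Other drugs of set C raised Neat1 too, Aripiprazole in 7 tissues (0.92% of all tests called higher), Clozapine in 6 (0.373%), Repatha in 6 (0.509%) and Teriparatide in 4 (0.349%), and all share the CMCTween libraries. CMCTween itself was below the mean of the 8 drugs in AdrenalG (-0.89), colon (-0.53), ileum (-0.67), liver (-1.52) and stomach (-0.74), and above it in BM (0.54), a comparison chosen after seeing the data, in which 0.9% of all tests were called. The ileum and stomach values hold libraries led by another tissue's markers. With all other groups of the set as reference, 3 tissues were higher with Aripiprazole and 3 with Teriparatide, 2 with Clozapine and none with Repatha. In liver Neat1 had 159 and 158 CPM with Repatha, against 33.7 and 52.1 CPM with CMCTween (2.06 ± 0.34, edgeR adjusted p = 0.0126), and 0.79 (adjusted p = 0.127) against all other groups. Teriparatide had 117 and 164 CPM there, against the same CMCTween libraries (1.79 ± 0.35, edgeR adjusted p = 0.0474), and 0.50 (adjusted p = 0.486) against all other groups. EMPA lowered Neat1 in BM, to 152 and 171 CPM with EMPA, against 372 and 387 CPM with CMCTween (-1.19 ± 0.17, edgeR adjusted p = 3.39e-05), and the value was -0.80 (adjusted p = 3.35e-05) against all other groups.

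APAP, sampled at 2 hours, moved Neat1 both ways, higher in heart, ileum and kidney and lower in AdrenalG, BM, brain, pancreas, spleen and WAT, where 9.95% of all tests were called. Pancreas changed most, with 91.6 and 69.9 CPM with APAP, against 283 and 284 CPM with Sucrose and 407 and 377 CPM in Untreated libraries (-2.22 ± 0.27, edgeR adjusted p = 4.79e-07). In spleen Neat1 had 500 and 541 CPM with APAP, against 930 and 887 CPM with Sucrose and 977 and 814 CPM in Untreated libraries (-0.82 ± 0.12, edgeR adjusted p = 5.82e-06). In BM it had 284 and 281 CPM with APAP, against 672 and 514 CPM with Sucrose and 448 and 387 CPM in Untreated libraries (-0.79 ± 0.14, edgeR adjusted p = 0.000161). The APAP libraries lay below all 4 control libraries in each of these tissues, which were named for their large called falls. The share of all genes so placed was not counted. In set B, Neat1 was lower in eye with Lurasidone, at 197 and 174 CPM, against 260 to 426 CPM with the other drugs (-0.71 ± 0.17, edgeR adjusted p = 0.0216). That call was lost without either Lurasidone library.

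Meg3 was called least often, and 12 of its 20 rises lay in AdrenalG and SkMuscle with drugs of set C. In AdrenalG (3.57% of all drug tests called) it rose with 7 of the 8 drugs, Lenalidomide excepted, and Teriparatide had the largest value, at 4442 and 4725 CPM, against 1703 and 2427 CPM with CMCTween (1.15 ± 0.17, edgeR adjusted p = 5.79e-05). The 7 share those CMCTween libraries, which lay below the mean of the 8 drugs (-0.83), and with all other groups as reference the Teriparatide value was 0.46. Dlk1, the paternally expressed gene of the locus, rose there with Teriparatide as well (0.70, edgeR adjusted p = 0.0406), and Rian did not pass (0.13, edgeR adjusted p = 0.800). Neuron markers summed to 126 to 142 CPM with Teriparatide, against 66.2 to 85.1 CPM with CMCTween, and neutrophil markers, which reached 84.3 CPM with Teriparatide, against 5.81 to 6.92 CPM with CMCTween, averaged 8.20 times as high. Adipocyte markers summed to 41.2 to 41.3 CPM with Teriparatide, against 267 to 403 CPM with CMCTween, and fibroblast markers to 561 to 630 CPM with Teriparatide, against 1333 to 1521 CPM with CMCTween. Macrophage markers were lower too and epithelial markers, under 4 CPM, higher, and the part of these lists in the result was not tested. In SkMuscle (5.19% called) Meg3 rose with 5 of the 8 drugs, most with Clozapine at 151 and 121 CPM, against 69.6 and 45.7 CPM with CMCTween (1.35 ± 0.20, edgeR adjusted p = 0.000169). CMCTween was itself below the mean of the 8 drugs for Meg3 there (-0.74, edgeR adjusted p = 0.0251), and with all other groups as reference the Clozapine value was 0.78 (edgeR adjusted p = 0.00027). Fibroblast markers summed to 2533 to 3246 CPM with Clozapine, against 1815 to 1905 CPM with CMCTween, and their part was not tested.

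In skin Meg3 moved in both directions. It had 892 CPM in both Repatha libraries, against 222 and 482 CPM with CMCTween (1.52 ± 0.30, edgeR adjusted p = 0.0159), and 755 and 787 CPM with Aripiprazole, against the same libraries (1.30 ± 0.30, edgeR adjusted p = 0.0183). Cisplatin had 155 and 183 CPM, against the same libraries (-1.05 ± 0.32, edgeR adjusted p = 0.0235), and Alendronate had 232 and 328 CPM, against 286 to 789 CPM with the other drugs of set B (-0.87 ± 0.26, edgeR adjusted p = 0.0478). Rian rose with Repatha (1.88, edgeR adjusted p = 0.0208) and Aripiprazole (1.72, edgeR adjusted p = 0.0223) and fell with Alendronate (-1.94, edgeR adjusted p = 0.0410), and with Cisplatin it had -1.44 (edgeR adjusted p = 0.153). Fibroblast markers (Col1a1, Col1a2, Col3a1, Dcn and Pdgfra, all 5 above 0) summed to 78819 to 79406 CPM with Repatha, 59168 to 79553 CPM with Aripiprazole and 4035 to 4563 CPM with Cisplatin, against 20892 to 52175 CPM with CMCTween. With Alendronate they summed to 6900 to 11791 CPM, against 13283 to 83681 CPM with the other drugs, and their part in the Meg3 values was not tested. Each of the 3 calls against CMCTween was lost in 3 of 4 fits that left out 1 library, and the Cisplatin value was -0.50 without CMCTween replicate 4. The Alendronate call was lost without either Alendronate library (adjusted p = 0.426 and 0.143) and with replicate number as a block (adjusted p = 0.0724).

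APAP lowered Meg3 in colon, ileum, jejunum and SkMuscle, 4 of 24 tissues, and raised it in none, where 5.12% of all tests were called lower. DESeq2 called 3 tissues lower and 1 higher. In ileum it had 126 and 152 CPM with APAP, against 247 and 244 CPM with Sucrose and 254 and 275 CPM in Untreated libraries (-0.77 ± 0.22, edgeR adjusted p = 0.0151), lost without APAP replicate 1. In jejunum it had 50.7 and 77.3 CPM with APAP, against 135 and 188 CPM with Sucrose and 164 and 317 CPM in Untreated libraries (-1.49 ± 0.49, edgeR adjusted p = 0.0320). That call was lost in 4 of 6 fits that left out 1 library, among them the Untreated replicate 4 led by ileum markers (-1.16, adjusted p = 0.118). Fibroblast markers summed to 403 to 471 CPM in ileum with APAP, against 731 to 1268 CPM in the controls, and to 347 to 413 CPM in jejunum with APAP, against 627 to 1245 CPM in the controls, and their part was not tested. With Risedronate Meg3 was lower in colon, at 313 and 273 CPM, against 323 to 629 CPM with the other drugs (-0.75 ± 0.12, edgeR adjusted p = 4.49e-05). In BM, where Meg3 is near the limit of counting, Cisplatin had 9 and 50 counts, against 6 and 4 counts with CMCTween (2.81 ± 0.97, edgeR adjusted p = 0.0329), not called by DESeq2 (adjusted p = 0.318), and 1.02 (edgeR adjusted p = 0.729) without Cisplatin replicate 3.

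Of the 360 comparisons, Malat1 was called in 89 and Neat1 in 59. They were called in the same comparison 23 times, both higher in 16, both lower in 3 and opposite in 4. The opposite ones were APAP in AdrenalG and Olanzapine in skin, with Malat1 higher and Neat1 lower, and Aripiprazole in colon and Asenapine in PituitaryG, with Malat1 lower and Neat1 higher. All 3 RNAs rose together in 7 comparisons, 5 of them in AdrenalG against the same CMCTween libraries, the others being Cisplatin in ileum and Teriparatide in SkMuscle. Joint calls of other genes were not counted, so whether these counts are particular to the 3 RNAs was not tested.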

How the data were processed

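RNA was extracted with Trizol and made into 3′-end libraries with a QuantSeq kit sequenced on a NextSeq 500, per the labels. The authors deposited 1 table of raw counts per tissue, 24421 symbols by 36 or 38 libraries. The submitters' processing notes name bcl2fastq 2.17, TopHat2 2.1.1, HTSeq 0.9.1 and mm10, and the annotation, strand setting and roles are not given in the sources used here. CPM used the column sums. Each tissue was fitted with edgeR 4.0.16 (quasi-likelihood F test, 18 groups, TMM scaling, filterByExpr with a minimum count of 10), with Benjamini-Hochberg adjustment over all genes of a comparison at 0.05. SE is the log2 fold change divided by the square root of F. The procedure was tested on simulated counts. The members, the gene lists and the library sets were chosen with earlier results of these data known. Genes named with values are, per member, the 5 largest called changes in each direction over all drugs, with a few comparisons added after their values were seen. Alternatives were RLE scaling, column sums, no filter, DESeq2, a replicate block, the libraries of a set alone, other references and leaving out single libraries. Of 2294 correlations between the deviations of same-numbered libraries, 7.67% exceeded 0.1 (-0.52 to 0.55, median 0.01). In groups of 2 libraries the deviations mirror each other, so each such correlation was counted for both replicate numbers. Whether same-numbered libraries pair was therefore not settled. No mitochondrial transcripts are among the symbols, so that planned list was not used. Sequences are from GENCODE M21 transcripts on mm10.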

Additional observations from a re-analysis of the deposited data

Results flagged for a closer look

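Neat1 in Asenapine brain had 1 library at 51.1 CPM beside 3 at 82.5, 84.7 and 87.7 CPM and stood apart by a gap of 0.858 of the range of the 4. Chance passes about 1 group in 20.

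For some treatments a member was called higher in one tissue and lower in another with no overlap between the libraries compared in either, and the difference was not tested. Between such tissues the widest log2 gaps for Malat1 were 2.002 for Cisplatin (liver 1.26, BM -0.75), 1.37 for EMPA (liver 0.72, BM -0.65), 1.76 for Lurasidone (ileum 1.01, kidney -0.75) and 2.40 for Sucrose (ParotidG 0.89, skin -1.51). For Neat1 they were 2.75 for APAP (ileum 0.52, pancreas -2.22) and 2.25 for EMPA (AdrenalG 1.06, BM -1.19). For Meg3 they were 3.86 for Cisplatin (BM 2.81, skin -1.05) and 1.11 for Lurasidone (ileum 0.75, PituitaryG -0.36). The Cisplatin and EMPA values were taken against CMCTween, which itself lay below or above the mean of the set C drugs in these tissues. For Malat1 CMCTween was at -0.45 in liver and 0.44 in BM, and for Neat1 at -0.89 in AdrenalG and 0.54 in BM. For Meg3 it was at -0.82 in BM and -0.32 in skin, neither called. The Cisplatin and EMPA gaps thus also hold the CMCTween levels, and their part was not tested.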

How the results depend on the processing

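Without the low-count filter, Malat1 had 142 called drug comparisons and Meg3 78, against 89 and 30 with it. With 1 control library of each tissue left out, the drug calls numbered 76 to 90 for Malat1, 40 to 60 for Neat1 and 23 to 30 for Meg3. For Sucrose against Untreated, leaving out 1 control library gave 4 to 8 tissues for Malat1, 0 to 5 for Neat1 and 0 to 1 for Meg3, against 9, 4 and 0. Column sums gave 2 for Neat1 and 1 for Meg3, the libraries of the set alone gave 7 and 1, and no filter gave 4 for Meg3. With replicate number as a block, drug calls were 84, 49 and 32 and Sucrose calls 7, 4 and 1 for Malat1, Neat1 and Meg3. Of the 30 largest changes, none reversed in any alternative. With 1 library left out, 80 of their refits stayed past the threshold and 33 did not, and the cause was not tested. Depth limits Meg3 in BM, kidney and liver most, and its 0 in 3 libraries allows up to 3 counts.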
